A study of Arabidopsis thaliana with 24 samples.

Results

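The comparison described here is that of rosettes of Arabidopsis thaliana held for 78 h in mild cooling with rosettes held there for 6 h, where mild cooling means 17 °C or 14 °C. It uses 8 of the 24 arrays of the series, which form 4 pairs. A pair is an array of 78 h and an array of 6 h with the same temperature and the same replicate letter, A or B. All 22746 probe sets that are not array controls were tested. The 4 arrays of 20 °C, which form 2 pairs, serve as the background of 3 more days of growth without cooling.

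All plants were wild-type Columbia-0, raised on soil at 20 °C under 12 h of light per day, and no group carries a mutation or a chemical treatment. At 4 weeks they were moved to 17, 14 or 20 °C when the lights had been on for 4 h. Both harvests fell 10 h into the light period, so the comparison is made at 1 time of day and the rosettes of 78 h are 72 h older. A sample pooled 3 whole vegetative rosettes, and each of the 6 groups (17, 14 and 20 °C at 6 h and at 78 h) had 2 arrays, A and B. Pooled rosettes mix all leaf cell types and ages, so a change in the share of a cell type and a change of RNA per cell cannot be told apart.

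Plants sense a drop of a few degrees as well as a chill near freezing. Growth slows, membranes and enzymes work more slowly, and sugars build up when export and growth fall behind photosynthesis. Over days leaves acclimate, with adjusted photosynthesis, sucrose synthesis, protein synthesis and cell wall growth. Ribosome assembly in the nucleolus, which needs RNA polymerases I and III and many processing factors, is known to be responsive to cold, and autophagy recycles cell contents through the vacuole.

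Signals are on the log2 scale as deposited, so a difference of 1 is a 2-fold change. The median signal of the 12 arrays of 20, 17 and 14 °C was between 7.17 and 7.25. The letters mark samples that deviate together, and the fit therefore used differences within pairs, 12 over all 6 temperatures, from which the mean of the 4 of mild cooling was tested. Every standard error (SE, or the value after ±) of a difference is limma's from that fit, with a spread shared over the 12 pairs. It can be smaller than the spread of the 4 pairs alone. With 1 mean per temperature, the gap between 17 and 14 °C enters neither the SE nor the p-value of mild cooling. Across probe sets, the differences of 17 °C and 14 °C correlated at 0.66 for letter A and 0.63 for letter B, against 0.19 between the letters at 17 °C and 0.22 at 14 °C, so the 4 differences are not fully independent. The fit treats them as independent, so the standard errors and p-values of mild cooling can be too small. Whether A and B came from separate plantings is not stated, and p-values measure the spread between these arrays only. The log2 ratio of the 3′ to the 5′ ubiquitin control probe sets, a sign of RNA quality, was 1.70 and 1.79 at 17 °C and 1.80 and 1.91 at 14 °C after 6 h, and 1.64 and 1.56 at 17 °C and 1.64 and 1.69 at 14 °C after 78 h. At 20 °C it was 1.77 and 1.78 after 6 h and 1.64 on both arrays after 78 h. It was thus lower after 78 h in every pair, with no overlap, and its part in the results was not tested. The corresponding ratios of actin and GAPDH overlapped between the harvests over both letters, but the letters differed. In letter B both were lower after 78 h at 20, 17 and 14 °C. GAPDH there lay between 0.77 and 1.01 after 6 h and between 0.46 and 0.59 after 78 h. Actin lay between 2.13 and 2.35 and between 1.86 and 1.97. In letter A the harvests overlapped, and at 17 °C both ratios were higher after 78 h (GAPDH 0.26 and 0.69, actin 2.67 and 2.81). The part of these ratios in the results was not tested either. The 18 hybridization control probe sets, which do not measure plant RNA, had mean differences in mild cooling from -0.26 to 0.08. In single mild-cooling pairs they reached -0.69 at 14 °C and 0.48 at 17 °C, both in letter A. Their part was not tested.

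Between 6 h and 78 h of mild cooling, 4542 probe sets (20%) had an unadjusted p below 0.05. This is the share beside which the unadjusted counts of the gene lists below stand. At a Benjamini-Hochberg adjusted p below 0.05, 1089 probe sets (4.79%) passed the test. Of these, 415 rose (1.82%) and 674 fell (2.96%). Genes for a sucrose phosphate synthase, several ATG8 autophagy proteins, vacuolar processing enzymes and parts of the photosynthetic apparatus were among those that rose. Genes for RNA polymerase subunits, ribosome and tRNA processing, DNA replication and the beta-glucosidase PYK10 were among those that fell. Most changes were small, with a median size of 0.38 on the log2 scale. A change of at least 1.5-fold was seen for 158 of the called probe sets and one of at least 2-fold for 10. The 4 differences had 1 sign for 1083 of the 1089, which the test favours, and 28.4% of all probe sets also had 1 sign in all pairs. The 4 arrays of 78 h lay wholly above or below the 4 of 6 h for 531 of the called probe sets (48.8%), against 7.22% of all probe sets. The same arrays made the calls, which favours this larger share. The calls rest on single pairs to a large degree: without the 17 °C pair of letter B no probe set was called (lowest adjusted p = 0.0753, with 2899 at an unadjusted p below 0.05), and without the 14 °C pair of letter A 16 were. Without pairing, 139 were called. The balance of directions moved as well, with 78 higher and 61 lower without pairing and 13 higher and 3 lower without the 14 °C pair of letter A.

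At 20 °C the same 72 h gave no call in limma (0%), with 1382 probe sets (6.08%) at an unadjusted p below 0.05. No probe set passed the test of the difference between the time change in mild cooling and that at 20 °C (0%), and 1294 (5.69%) had an unadjusted p below 0.05. Being called in mild cooling and not at 20 °C is therefore not shown to be a difference between them, and the 20 °C value rests on 2 pairs, with a median standard error of 0.0981 against 0.0694 for mild cooling. The median of the called probe sets that rose was 0.37 in mild cooling and 0.13 at 20 °C, and that of the probe sets that fell was -0.38 and -0.12. These probe sets were chosen by their mild-cooling difference, which by itself favours the larger median there, so the medians are a description. The 20 °C mean had the direction of mild cooling for 902 of the 1089 (82.8%), against 61.4% of all probe sets. The plot of both time differences over all probe sets shows these values together.

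**Figure D1:**
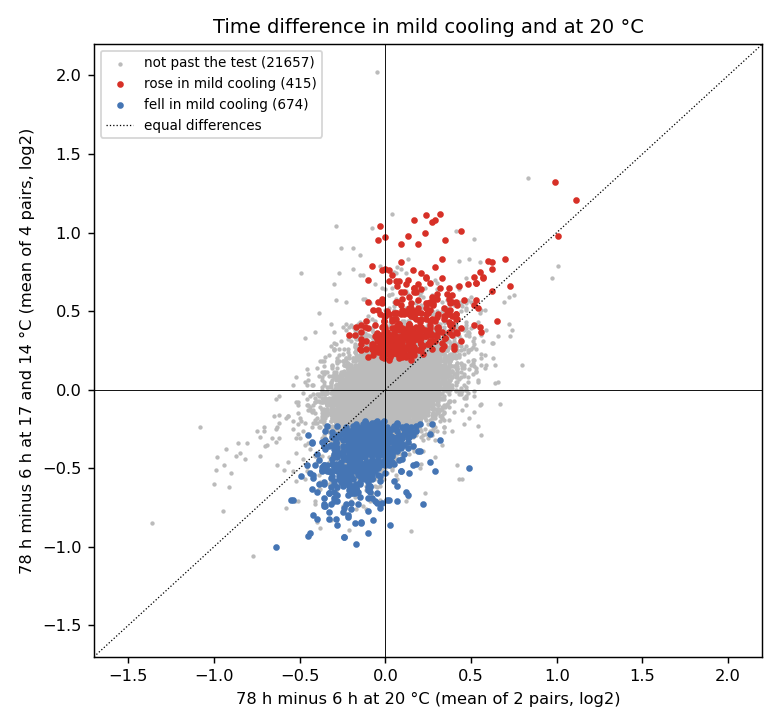
Each point is a probe set, with its difference in log2 signal between 78 h and 6 h at 20 °C (x axis, mean of 2 pairs) and in mild cooling (y axis, mean of 4 pairs). The 415 probe sets that rose (red) and the 674 that fell (blue) lie mostly farther from 0 on the y axis than on the x axis, and grey points did not pass the test in mild cooling. Red and blue points were chosen by the y axis, which favours this.

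The signals at 6 h and 78 h were also set against 20 °C at the same harvest. These comparisons share the mild-cooling arrays with the time difference, so they are given as values only. For the 415 probe sets that rose, the median difference of mild cooling from 20 °C was -0.22 after 6 h and 0.00 after 78 h, and 375 of them were below the 20 °C mean after 6 h. For the 674 that fell, it was 0.21 after 6 h and -0.06 after 78 h, and 588 were above the 20 °C mean after 6 h. In the median, the called probe sets were thus farther from 20 °C at the early harvest than at the late one. Choosing by the time difference favours low signals at 6 h among those that rose and high ones among those that fell. The shares over all probe sets are not given here, so the counts are a description of the chosen probe sets only.

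The largest rise of a named gene was that of EXPA8, an alpha-expansin, a protein that loosens growing cell walls. Its log2 signal after 6 h was 7.80 and 6.63 at 17 °C and 7.05 and 7.05 at 14 °C, with letter A before letter B here and below. After 78 h it was 9.22 and 8.30 at 17 °C and 9.03 and 7.27 at 14 °C. The groups overlapped, since the 14 °C array of letter B after 78 h was below the 17 °C array of letter A after 6 h. The mean difference of the 4 pairs was 1.32, a 2.5-fold rise, with an SD of 0.77 between them (limma SE 0.23, adjusted p = 0.0193). It ranged from 0.21 in the 14 °C pair of letter B to 1.98 in that of letter A. EXPA8 was also higher after 78 h in both pairs of 20 °C, by 1.26 and 0.72, and the difference between mild cooling and 20 °C was 0.33 ± 0.39 (adjusted p = 0.977). EXPA16, another alpha-expansin, fell by 0.83 on the log2 scale (SE 0.14, adjusted p = 0.0177). Its signal was 9.77 and 9.67 at 17 °C and 9.66 and 8.96 at 14 °C after 6 h, and 9.17 and 8.57 at 17 °C and 8.51 and 8.47 at 14 °C after 78 h. These ranges overlapped, while every pair fell. At 20 °C the EXPA16 differences were 0.19 and -0.32. Of 19 expansin probe sets, 1 rose and 1 fell, and their median was 0.06. None of 10 xyloglucan endotransglucosylases passed (2 at an unadjusted p below 0.05), and of 5 pectin-modifying enzymes 1 rose, the pectin methylesterase PMEPCRF (0.39 ± 0.08, adjusted p = 0.0292).

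Sucrose metabolism was represented most strongly by ATSPS4F, a sucrose phosphate synthase, the enzyme family that sets the rate of sucrose synthesis. Its log2 signal was 8.72 and 8.87 at 17 °C and 8.22 and 8.28 at 14 °C after 6 h. After 78 h it was 9.35 and 9.59 at 17 °C and 9.68 and 9.27 at 14 °C, so all arrays of 78 h were above all of 6 h. The difference was 0.95 ± 0.10 (adjusted p = 0.00756), a 1.93-fold rise, with an SD of 0.37 between the 4 pairs. At 20 °C the signal was 9.37 and 9.31 after 6 h and 9.10 and 9.50 after 78 h, differences of -0.27 and 0.19. The time difference in mild cooling exceeded that at 20 °C by 0.99 ± 0.17, with an unadjusted p of 0.000202 and an adjusted p of 0.575. In the 4 mild-cooling arrays of 6 h ATSPS4F was thus below both 20 °C arrays of that harvest. At the colder temperatures its difference was 1.48 and 1.14 at 12 °C, 1.15 and 1.16 at 10 °C, and 1.38 and 1.53 at 8 °C.

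Of the SWEET sugar transporters, SWEET13 and SWEET2 rose as well. SWEET13, of the clade that exports sucrose from cells, had signals of 6.71 and 6.49 at 17 °C and 7.27 and 6.85 at 14 °C after 6 h, and 7.29 and 7.34 at 17 °C and 7.72 and 7.29 at 14 °C after 78 h. The ranges met without overlapping, and the difference was 0.58 ± 0.07 (adjusted p = 0.0112). At 20 °C SWEET13 differed by 0.52 and 0.23. SWEET2, a vacuolar sugar transporter, rose by 0.39 ± 0.08 (adjusted p = 0.031). With ATSPS4F they were 3 of 23 probe sets of the list of sugar transport and sucrose turnover that rose, none fell, and the list's median was 0.05 against 0.00 over all probe sets. The vacuolar monosaccharide transporter TMT1 differed by 0.43 ± 0.11 and missed the threshold (adjusted p = 0.0577). None of 8 probe sets for starch synthesis and breakdown passed (2 at an unadjusted p below 0.05), and their median was -0.11.

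**Figure D2:**
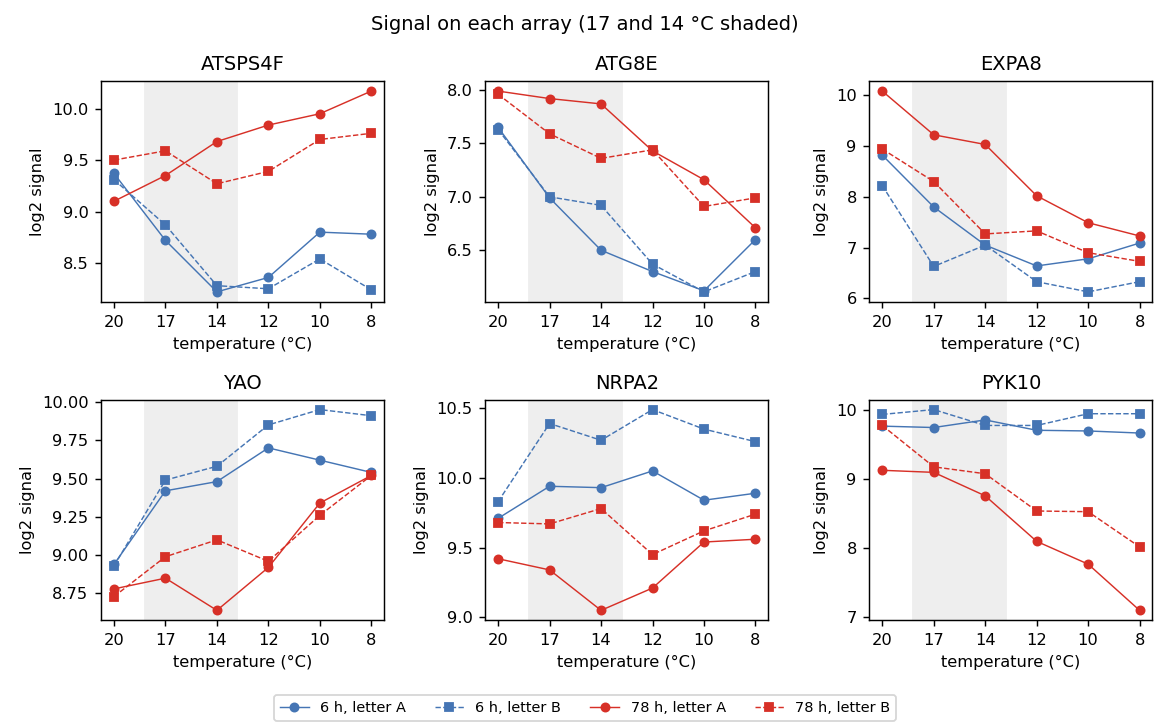
Log2 signal of 6 genes on each of the 24 arrays, by temperature in °C on the x axis, after 6 h (blue) and 78 h (red), with letter A as circles and letter B as squares. At 17 and 14 °C (shaded) the red points of ATSPS4F, ATG8E and EXPA8 lie above the blue points of the same letter, and those of YAO, NRPA2 and PYK10 below them.

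ATG8 proteins are small ubiquitin-like proteins that are attached to the membrane of the forming autophagosome. Of 9 measured ATG8 genes, 5 rose and 4 did not pass, and their median was 0.33 in mild cooling and 0.12 at 20 °C. ATG8E had signals of 6.99 and 7.0 at 17 °C and 6.50 and 6.92 at 14 °C after 6 h. After 78 h it had 7.92 and 7.59 at 17 °C and 7.87 and 7.36 at 14 °C. The harvests did not overlap, and the difference was 0.83 ± 0.14 (adjusted p = 0.0193). At 20 °C it was 7.65 and 7.63 after 6 h and 7.99 and 7.96 after 78 h, a difference of 0.33 in both pairs. ATG8F rose by 0.62 ± 0.11 (adjusted p = 0.0193), with the 14 °C pair of letter A at 1.12 and the others between 0.40 and 0.50. APG8A (0.44 ± 0.09, adjusted p = 0.0292), ATG8G (0.41 ± 0.05, adjusted p = 0.0114) and ATG8H (0.32 ± 0.07, adjusted p = 0.0402) also rose. ATG8C (0.33), ATG8D (0.31), APG8H (0.23) and ATG8B (-0.16) did not pass. The ATG8 genes make up most of the list of senescence and autophagy genes, of whose 15 probe sets 5 rose and none fell. The senescence genes proper did not pass: SAG29, a marker of senescent leaves, differed by -0.11 ± 0.12 (adjusted p = 0.667), SAG101 by 0.28 and WRKY53 by -0.03.

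Vacuolar processing enzymes are cysteine proteases that mature other vacuolar proteins. GAMMA-VPE, the main form of leaves, had signals of 11.30 and 10.34 at 17 °C and 11.30 and 10.69 at 14 °C after 6 h, and 11.96 and 11.29 at 17 °C and 12.00 and 11.37 at 14 °C after 78 h. The ranges just overlapped, and letter A was above letter B at each temperature and harvest. The difference was 0.75 ± 0.13 (adjusted p = 0.0212), between 0.66 and 0.95 over the pairs. At 20 °C it differed by 0.57 and 0.53, and mild cooling exceeded 20 °C by 0.20 ± 0.23 (adjusted p = 0.977). BETA-VPE rose by 0.31 ± 0.06 (adjusted p = 0.0304), and ALPHA-VPE (0.04) and DELTA-VPE (0.05) did not pass. AKINBETA1, a regulatory subunit of the energy-sensing kinase SnRK1, rose by 0.65 ± 0.12 (adjusted p = 0.0212). Its 4 signals of 6 h lay between 6.45 and 6.96 and those of 78 h between 7.02 and 7.61. The other 2 of 3 SnRK1 subunits measured did not pass. At 20 °C AKINBETA1 was higher after 78 h by 0.26 and 0.38. The lists of vacuolar processing enzymes and SnRK1 subunits were written after values had been seen. ALN, allantoinase of purine breakdown, rose by 0.39 ± 0.06 (adjusted p = 0.0135), with 0.25 and 0.35 at 20 °C. AT5G61590, listed as DEWAX and known as a repressor of wax synthesis, rose by 0.61 ± 0.12 (adjusted p = 0.0257), with 0.33 and 0.40 at 20 °C.

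Of the chloroplast genes on the lists, few passed the test. NdhS, a subunit of the NDH complex that carries electrons around photosystem I, had signals of 10.86 and 10.68 at 17 °C and 10.31 and 10.60 at 14 °C after 6 h. After 78 h it had 11.25 and 11.04 at 17 °C and 11.27 and 11.11 at 14 °C, above all values of 6 h. It rose by 0.56 ± 0.07 (adjusted p = 0.0103, with an SD of 0.28 between the pairs), while the 4 arrays of 20 °C stayed between 11.10 and 11.19. The difference from 20 °C was 0.49 ± 0.12 (unadjusted p = 0.00214, adjusted p = 0.746). NdhL rose by 0.23 ± 0.05 (adjusted p = 0.0438), and NdhN, the third nuclear NDH subunit measured, did not pass (0.10); the NDH list was written after values had been seen. LHCB4.2, a form of the minor antenna protein CP29, rose by 0.47 ± 0.11 (adjusted p = 0.0415), with signals from 12.66 to 13.04 after 6 h and from 13.28 to 13.48 after 78 h. At 20 °C it was higher after 78 h by 0.49 and 0.28, and the difference of mild cooling from 20 °C was 0.09 ± 0.19 (adjusted p = 0.996). Its paralog LHCB4.1 differed by 0.02 ± 0.05 (adjusted p = 0.894), and LHCB4.3 by 0.67 ± 0.17 (adjusted p = 0.054). LHCB4.2 was the sole riser among 7 nuclear photosystem and antenna genes, whose median was 0.08. TROL, which anchors ferredoxin-NADP reductase at the thylakoid, rose by 0.36 ± 0.06 (adjusted p = 0.0193). Of 4 measured genes of the Calvin cycle and photorespiration, 2 rose, phosphoribulokinase PRK (0.39 ± 0.07, adjusted p = 0.0216) and sedoheptulose bisphosphatase SBPASE (0.28 ± 0.06, adjusted p = 0.0316). Of 11 genes of chlorophyll synthesis, 1 rose, the protochlorophyllide oxidoreductase PORB (0.29 ± 0.06, adjusted p = 0.0356), and the median was 0.12. At 20 °C PORB was higher after 78 h by 0.21 in both pairs. GR, a glutathione reductase, rose by 0.22 ± 0.05 (adjusted p = 0.0412) and GSTU26, a glutathione transferase, by 0.51 ± 0.10 (adjusted p = 0.0256). None of 20 plastid-encoded photosystem probe sets and none of 15 plastid-encoded ribosomal protein probe sets passed (1 and 2 at an unadjusted p below 0.05), with medians of 0.00 and -0.08. The plastid-encoded ribosomal list was 0.19 in the pairs of letter A and -0.30 in those of letter B, so the letters differed in sign.

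Several genes for making ribosomes and transfer RNA fell. NRPA2, the second-largest subunit of RNA polymerase I, which transcribes ribosomal RNA, had signals of 9.94 and 10.39 at 17 °C and 9.93 and 10.27 at 14 °C after 6 h. After 78 h it had 9.34 and 9.67 at 17 °C and 9.05 and 9.78 at 14 °C, all below the values of 6 h. It fell by 0.67 on the log2 scale (SE 0.09, adjusted p = 0.0114), against differences of -0.29 and -0.15 at 20 °C. YAO, a nucleolar protein of ribosomal RNA processing, had signals of 9.42 and 9.49 at 17 °C and 9.48 and 9.58 at 14 °C after 6 h, and 8.85 and 8.99 at 17 °C and 8.64 and 9.10 at 14 °C after 78 h. It fell by 0.60 (SE 0.09, adjusted p = 0.0136), with no overlap. At 20 °C its 4 signals lay between 8.73 and 8.94, so after 6 h every mild-cooling array was above them. YAO was 1 of 5 ribosome biogenesis genes and the one that passed; all 5 had negative differences, and their median was -0.40 in mild cooling and -0.02 at 20 °C.

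A list of RNA polymerase subunits and of rRNA and tRNA processing factors was written after values had been seen, so its counts are a description. Of its 21 probe sets 7 fell and none rose, and the median was -0.32 in mild cooling and -0.16 at 20 °C. Besides NRPA2 these were NRPC1, the largest subunit of RNA polymerase III (-0.45), the nucleolar protein RBL (-0.55), the tRNA 3′-end nuclease TRZ3 (-0.52), the ribosomal RNA dimethylase DIM1A (-0.33), the exosome subunit RRP41 (-0.32) and the tRNA methylation subunit TRM82 (-0.32). Their adjusted p-values were between 0.0114 and 0.0484. The largest subunit of RNA polymerase I, NRPA1, differed by -0.50 and did not pass (adjusted p = 0.116), with the 14 °C pair of letter A at -0.94 and that of letter B at -0.07. Of the 12 polymerase subunits measured, 2 fell.

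A list of DNA replication genes, which also holds the cell cycle regulator FBL17, was likewise written after values had been seen. Of its 6 genes 4 fell, FBL17 among them, with a median of -0.36 against -0.13 at 20 °C. PRL, the PROLIFERA (MCM7) subunit of the replicative helicase, had signals of 9.25 and 9.79 at 17 °C and 9.41 and 9.82 at 14 °C after 6 h. After 78 h it had 8.97 and 9.23 at 17 °C and 8.96 and 9.22 at 14 °C, below all values of 6 h. It fell by 0.47 (SE 0.08, adjusted p = 0.0187), and by 0.21 and 0.32 in the pairs of 20 °C. POLA3, a primase subunit (-0.40, adjusted p = 0.0383), FBL17, an F-box protein that removes inhibitors of the cell cycle (-0.39, adjusted p = 0.0379), and PSF2 of the GINS complex (-0.32, adjusted p = 0.0222) fell too. In the cell cycle list PRL was the 1 gene of 6 to pass. Among the 7 tubulins TUB7 alone passed and fell by 0.30 (adjusted p = 0.0239), and none of 7 histone genes passed (2 at an unadjusted p below 0.05).

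**Figure D3:**
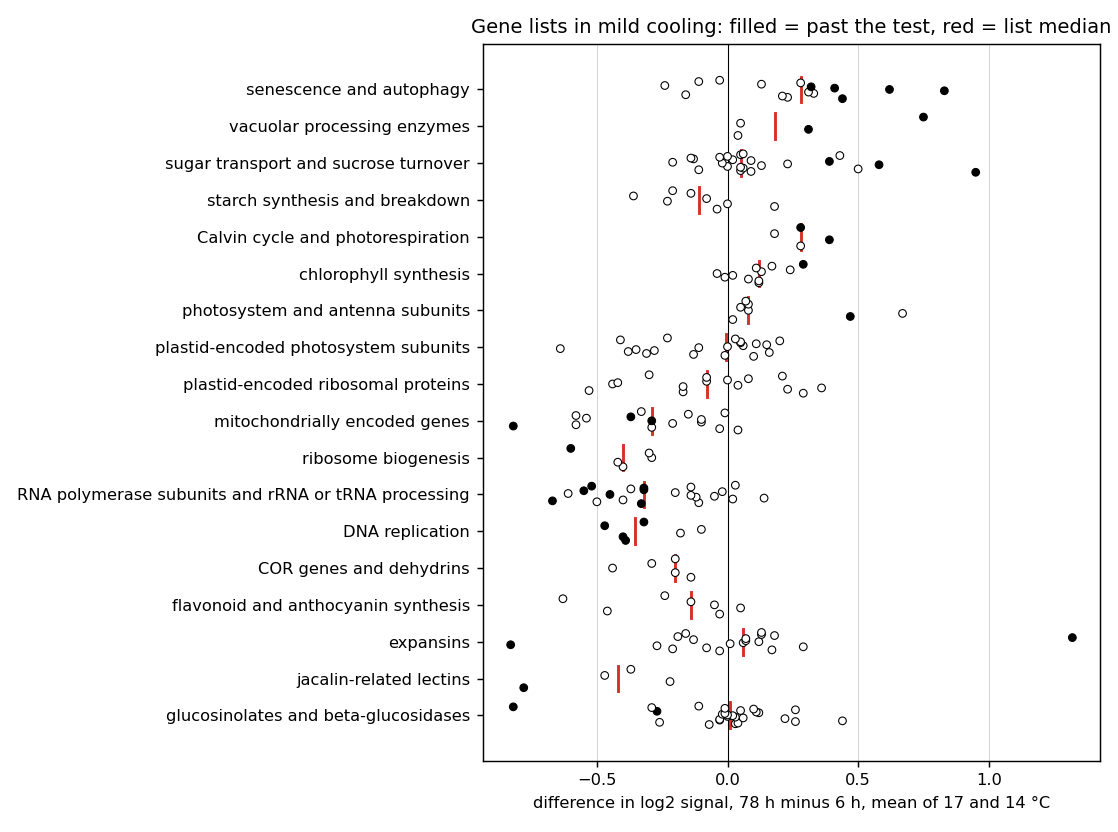
Difference in log2 signal between 78 h and 6 h, mean of the 17 and 14 °C pairs, for each probe set of 18 gene lists, with filled points for those past the test and a red line at the list's median. The median is 0.28 for senescence and autophagy, -0.40 for ribosome biogenesis, -0.32 for RNA polymerase subunits and RNA processing and -0.36 for DNA replication. Most points are open in the other lists, while 4 of 6 are filled for DNA replication, which includes FBL17. For vacuolar processing enzymes and for the Calvin cycle and photorespiration 2 of 4 are filled.

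PYK10 is a beta-glucosidase stored in endoplasmic reticulum bodies and best known from roots and seedlings. Its signals were 9.74 and 10.00 at 17 °C and 9.85 and 9.77 at 14 °C after 6 h, and 9.09 and 9.17 at 17 °C and 8.75 and 9.07 at 14 °C after 78 h. The harvests did not overlap, and PYK10 fell by 0.82 (SE 0.13, adjusted p = 0.0182). It was also lower after 78 h at 20 °C, by 0.64 and 0.17, and its difference was -1.94 and -1.42 at 10 °C and -2.57 and -1.92 at 8 °C. PYK10 was on the list of root markers, whose other 2 measured members differed by 0.07 (EXPA7) and 0.01 (EXPA18), with signals between 5.44 and 6.14 on the 12 arrays. The log2 of the summed root marker signal was 9.90 to 10.13 after 6 h and 9.08 to 9.43 after 78 h of mild cooling, and PYK10 sets this sum. The part of root tissue in this fall was not tested. The 5 leaf markers had signals between 12.66 and 14.53, and their summed log2 signal was 16.11 to 16.27 after 6 h and 16.27 to 16.28 after 78 h. JAL22, a jacalin-related lectin of the family that binds PYK10, fell by 0.78 (SE 0.10, adjusted p = 0.0104), from between 7.55 and 7.95 after 6 h to between 6.72 and 7.15 after 78 h. The other 3 of 4 such lectins, a list written after values had been seen, did not pass (JAL33 -0.47, JAL34 -0.37, JAL23 -0.22). The beta-glucosidase BGLU42 fell by 0.27 (adjusted p = 0.0304), and it and PYK10 were the 2 that fell of 26 probe sets for glucosinolates and beta-glucosidases.

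The mitochondrial gene ccb452, for a cytochrome c assembly factor, fell by 0.82 (SE 0.11, adjusted p = 0.0114). Its signals were 8.66 and 9.39 at 17 °C and 8.52 and 9.04 at 14 °C after 6 h, and 7.99 and 8.36 at 17 °C and 7.77 and 8.22 at 14 °C after 78 h, without overlap. Its probe set is of a kind that can detect more than 1 transcript. Of 15 mitochondrially encoded genes, listed after values had been seen, 3 fell, the others being the complex I subunits nad1 (-0.29, adjusted p = 0.0283) and nad4L (-0.37, adjusted p = 0.0281). Their median was -0.29 in mild cooling and -0.13 at 20 °C. The cytochrome oxidase gene cox1 (-0.58) and nad5 (-0.58) did not pass. MSRB6, a methionine sulfoxide reductase, fell by 0.86 (SE 0.18, adjusted p = 0.033), with signals of 10.26 and 9.72 at 17 °C and 11.10 and 9.54 at 14 °C after 6 h and between 9.01 and 9.52 after 78 h. Its pairs ranged from -0.37 to -1.81, and at 20 °C it differed by 0.01 and 0.05. AT1G59740, listed as NPF4.3 of the nitrate and peptide transporter family, fell by 0.60 (SE 0.09, adjusted p = 0.0153).

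Many of the largest changes were of genes known in the annotation by locus code alone. AT4G12490 had the smallest adjusted p of the named genes (0.00242) and rose by 0.93 ± 0.06, with an SD of 0.28 between the 4 pairs. Its signals were 8.81 and 7.59 at 17 °C and 8.68 and 7.73 at 14 °C after 6 h, and 9.47 and 8.31 at 17 °C and 9.82 and 8.92 at 14 °C after 78 h. The harvests overlapped because letter A was above letter B throughout, while the 4 differences were between 0.66 and 1.19. Its difference from 20 °C, where the pairs were -0.09 and 0.27, was 0.84 ± 0.11, with the smallest unadjusted p of the named genes in that test (2.86e-05) and an adjusted p of 0.575. AT2G34620 rose by 1.08 ± 0.09 (adjusted p = 0.0041). It had 9.17 and 9.04 at 17 °C and 8.44 and 8.71 at 14 °C after 6 h, against 9.93, 10.05, 9.99 and 9.70 after 78 h in the same order, and between 9.83 and 10.12 on the 4 arrays of 20 °C. AT5G15780 rose by 0.98 ± 0.09 (adjusted p = 0.0041) and was higher after 78 h at 20 °C too, by 0.85 and 1.18. The other 6 locus-code genes among the 12 largest rises were AT4G33666, AT1G23390, AT5G48490, AT3G26510, AT3G23080 and AT1G60590, with differences between 0.77 and 1.08. Among the 12 largest falls 8 had a locus code only, from AT4G15680 at -1.0 to AT2G23910 at -0.80, and the others were AT4G04940, AT5G39840, AT4G26600, AT3G06530, AT2G18220 and AT1G30240.

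**Figure D4:**
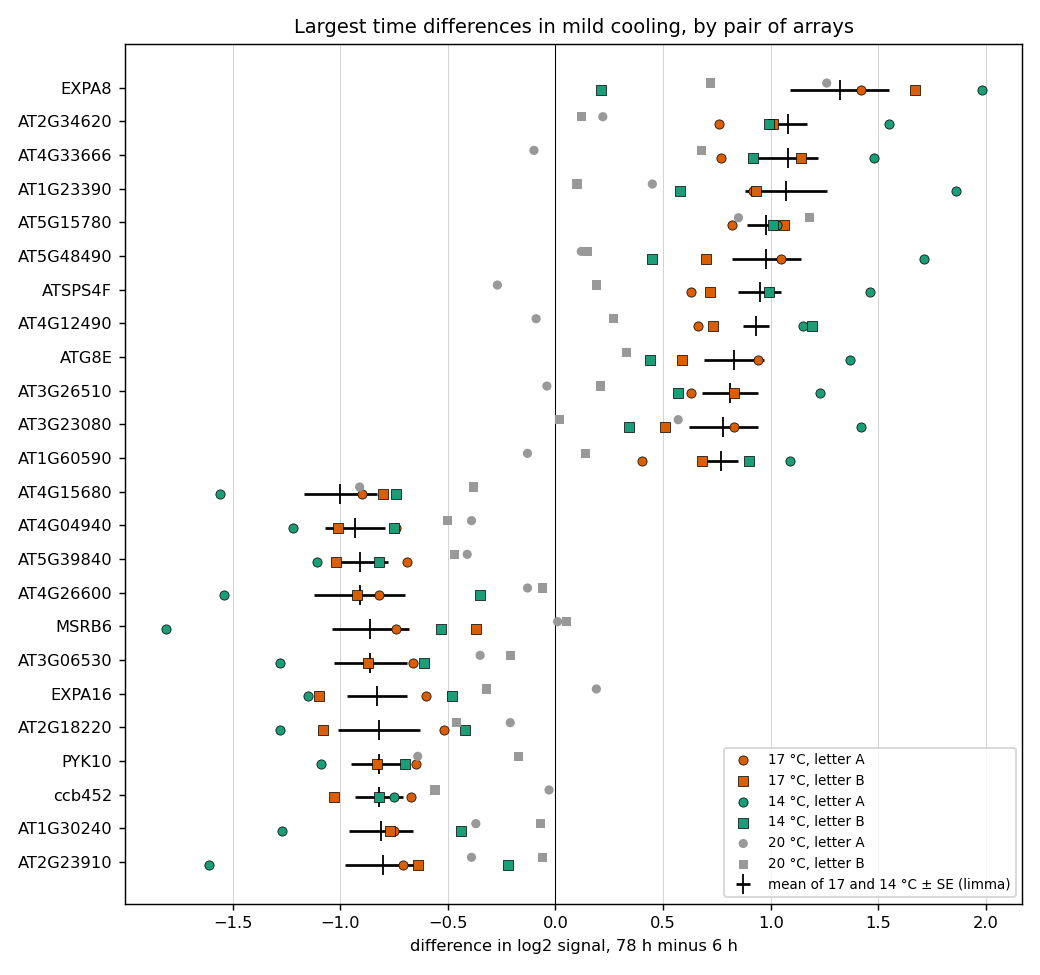
Difference in log2 signal between 78 h and 6 h in each pair of arrays, for the 12 named genes with the largest rises and the 12 with the largest falls, with the mean of the mild-cooling pairs and its limma standard error, which is estimated over all 12 pairs, in black. All 4 mild-cooling pairs (coloured) lie on 1 side of 0 for each gene, the 14 °C pair of letter A is often the farthest out, and the 20 °C pairs (grey) are mostly nearer to 0. The genes were chosen by the coloured pairs, which favours this.

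No measured gene of the cold-response lists passed the test between the harvests. Under the annotation, which lists no gene for 8730 probe sets, the list of regulators had 1 member, STZ. The list of COR genes and dehydrins had 5, so many genes of these lists were not examined. The 5 COR genes and dehydrins all had negative differences, 1 of them at an unadjusted p below 0.05, with a median of -0.20 in mild cooling and 0.07 at 20 °C. COR47, a dehydrin, differed by -0.29 ± 0.16 (adjusted p = 0.36), and its signal depended on the letter, at 12.72 and 11.46 at 17 °C and 13.40 and 11.92 at 14 °C after 6 h. STZ, a zinc finger repressor, differed by -0.78 and -1.04 in the pairs of letter A and by 0.94 and 0.71 in those of letter B, so its mean of -0.04 ± 0.43 describes neither. None of 7 genes of flavonoid and anthocyanin synthesis passed (1 at an unadjusted p below 0.05), with a median of -0.14. Heat shock and chaperone genes (10), auxin genes (16), touch and calcium-signal genes (8) and WRKY and ERF factors (7) had no member past the test, of all these 1 touch gene at an unadjusted p below 0.05, and medians between -0.02 and 0.04. The clock gene GI differed by -0.37 and did not pass (adjusted p = 0.0967).

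The called probe sets were then followed at the other temperatures, whose arrays entered the variance estimate and not the contrast. At 12 °C both pairs had the direction of mild cooling for 93.7% of the 415 that rose and 92% of the 674 that fell. Over all probe sets with a positive or a negative mild-cooling mean, called or not, the shares were 45% and 45.2%. At 10 °C both pairs had that direction for 85.1% and 57.7% of the called, against 45.5% and 31.5%. At 8 °C they had it for 70.1% and 56.2%, against 36.7% and 39.2%. At 20 °C the shares were 64.8% and 64.7%, against 35.6% and 33.7%. These arrays carry the same letters as those that made the calls, so the shares are a description. Within mild cooling, 847 of the 1089 (77.8%) had the larger change at 14 °C, against 57% of all probe sets. In letter A their rising and falling medians were 0.31 and -0.27 at 17 °C, and 0.48 and -0.53 at 14 °C. In letter B they were 0.38 and -0.37 at 17 °C, and 0.31 and -0.36 at 14 °C. Larger medians at 14 °C were thus seen in letter A only, and these arrays also made the calls. No probe set passed the test of 14 °C against 17 °C (0%, with 537 or 2.36% at an unadjusted p below 0.05). AT2G34620 differed by 1.78 and 1.95 at 12 °C, 1.90 and 2.17 at 10 °C and 1.61 and 1.81 at 8 °C. YAO differed by -0.78 and -0.90 at 12 °C and by -0.02 and -0.39 at 8 °C.

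**Figure D5:**
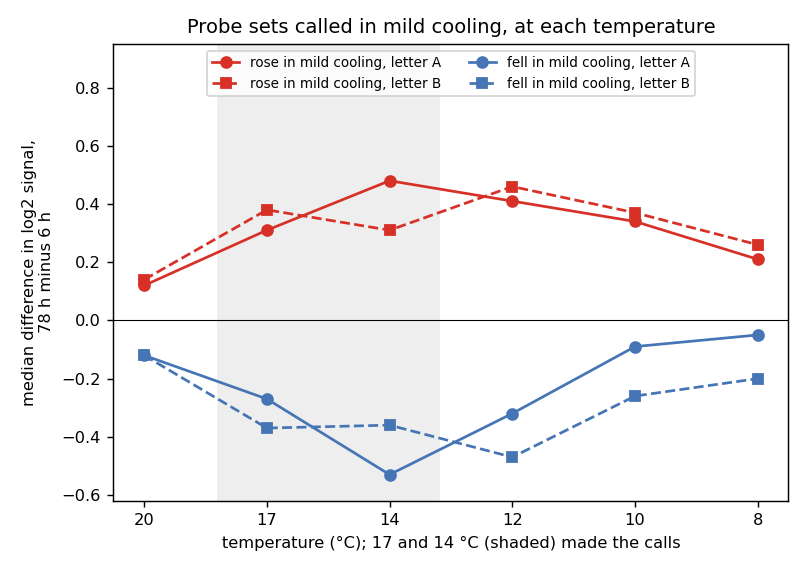
Median difference in log2 signal between 78 h and 6 h of the probe sets that rose (red) and fell (blue) in mild cooling, in the pair of each letter at each temperature in °C on the x axis. The medians are 0.12 and 0.14 for the rising and -0.12 for the falling probe sets at 20 °C, are farthest from 0 in the 14 °C pair of letter A at 0.48 and -0.53, are 0.46 and -0.47 at 12 °C for letter B, and are 0.21 and -0.05 at 8 °C for letter A.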

How the data were processed

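Messenger RNA of whole rosettes was measured on 24 one-colour oligonucleotide arrays. The deposited table holds log2 signals of 22810 probe sets that the authors had already normalized between arrays. The log base was inferred from the range of the values. How they were normalized and background-corrected is not given in the sources used here. Control probe sets (64) were left out. Spot background was not used here. The labels speak of at least 5 replicate samples, and 2 arrays per group are analysed.

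Differences of 78 h minus 6 h were formed within temperature and letter (12 pairs). The A minus B difference correlated at 0.52 to 0.89 (median 0.67) across probe sets over 66 pairs of groups, so the letters pair the arrays. limma 3.58.1 (R 4.3.3) was fitted with 1 mean per temperature, 6 residual and 3.31 prior degrees of freedom. The contrasts were the mean of 17 and 14 °C, 20 °C, their difference, and 14 minus 17 °C. Benjamini-Hochberg adjustment ran over 22746 probe sets, and all adjusted p-values are limma's. The procedure was run on simulated data. Their pair differences varied independently, so that run does not cover the correlation within a letter seen here.

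Genes were named from the given probe annotation, with a single gene for 13513 probe sets, more than 1 for 503 and no listed gene for 8730. Of the 13513, 13436 matched TAIR10.1. Named genes are the 12 largest rises and 12 largest falls among called probe sets with 1 gene and 1 sign in all pairs, and up to 4 genes per list. ATG8H, ATG8C, ATG8D, APG8H, ATG8B, GAMMA-VPE, BETA-VPE, NdhS, NdhL, PRK, POLA3, PSF2, FBL17, DIM1A, RRP41, RBL, NRPC1, TROL, ALN and AT5G61590 were chosen after their values were seen. So were SWEET2, LHCB4.1 and WRKY53, which are on lists but outside this rule. The members and lists were chosen with earlier results of these data known, and 7 lists were added after values were seen, so the genes named from these, JAL22 and AKINBETA1 among them, were also chosen after their values were seen. Of the 34 first lists, 3 had no measured member under their names. Flower and seed markers had none either. Plots were drawn with matplotlib 3.10.9. Alternatives left out or added the pairing, letters, arrays and pairs, or changed the scaling, filter and variance model.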

Additional observations from a re-analysis of the deposited data

Results flagged for a closer look

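In 59 named genes whose 4 pair differences were looked at, a single pair stood apart from the other 3 in 5, by Dixon's ratio for 4 values at its usual critical value, and chance flags about 5% of groups. The 17 °C pair of letter A was low for PRK at 0.17. The 14 °C pair of letter A was high for SBPASE at 0.37 and for ATG8F at 1.12. The 17 °C pair of letter B was farthest for TRZ3 at -0.70 and for GAMMA-VPE at 0.95. Each of the 5 genes had its other 3 differences of the same sign as its mean.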

How the results depend on the processing

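The count of 1089 probe sets called in mild cooling was 911 after median centring, 1018 after cyclic loess, 1135 without the dimmest 25% and 1057 with trend and robust estimation. With no replicate block, that is without pairing the arrays by letter, it was 139, of which 138 were among the 1089. With the letter as an additive replicate block it was 2152, with the letter as a term on the differences 2492, with only the arrays of 20, 17 and 14 °C 584, and with only the 4 mild-cooling differences, an alternative added after seeing the data, 820. Leaving out 1 pair in turn gave 0 to 1223. The count was 160 without the 17 °C pair of letter A, 0 without that of letter B and 16 without the 14 °C pair of letter A. Fewer pairs leave fewer degrees of freedom, and the cause of the unequal counts was not tested. At 20 °C 2 probe sets were called with the letter as a term on the differences, and none otherwise. The tests of mild cooling against 20 °C and of 14 °C against 17 °C gave 0 calls under each of these alternatives except the added one, under which they were not run. Of the 24 genes with the largest changes, 13 lost the call with no replicate block, 24 without the 17 °C pair of letter B, 20 without the 14 °C pair of letter A, 15 without the 17 °C pair of letter A and 7 with only the arrays of 20, 17 and 14 °C. Among the genes named from lists, SBPASE, LHCB4.2, GR and ATG8H lost the call in each of the 6 fits that left out 1 pair of 20, 17 or 14 °C. No named gene changed direction with a call on either side. Without the 17 °C pair of letter B every list had 0 calls. The table gives no detection calls, so signals near background could not be marked.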
